A study of Rattus norvegicus with 10 samples.

Results

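The fragments described here come from the 3′ part of rat brain tRNAs. A listed fragment was taken as a 3′ end fragment when it started after position 1 of its tRNA, ended after its start and ended no more than 3 nts before the tRNA's last position. Fragments of tRNA-His(GTG), tRNA-Met(CAT), tRNA-Gln(CTG) and the leucine tRNAs were left out. This rule gave 230 of the 2262 listed fragments, from 31 of 69 tRNAs and 21 of 38 anticodons. Before those tRNAs were left out, 239 fragments met the positions. The small RNAs were sequenced from both sides of the brain of 5 adult male Sprague-Dawley rats, numbered 45, 52, 61, 71 and 72. In each rat the right middle cerebral artery was blocked for 2 h with a nylon thread and then reopened, and tissue was taken after 24 h. The right brain gave 5 ischemic libraries and the left brain of the same animals gave 5 control libraries, so both groups shared strain, surgery and anesthesia. The control is therefore the other side of an operated brain and not the brain of an intact animal. All 5 rats had been chosen for a clear deficit of the left forelimb.

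The side of the brain, which the sample titles give, set the groups. In 4 libraries the source label contradicts the side, namely in the right brains of rats 45 and 52 and the left brains of rats 71 and 72. In the 6 other libraries both labels match, 3 in each group. Library totals ranged from 5125962 to 42674116 reads. In the ischemic libraries 14.3% to 46.7% of the reads were on the tRNA list, and in the control libraries 1.34% to 2.42%. A value of 0 in a library allows up to 3 reads, or 0.0703 to 0.585 RPM, which stands for reads per 1000000 reads of the library, counting error only. In bulk tissue, a change in the mix of cells and a change in the RNA of each cell cannot be told apart. The list holds tRNA fragments only, so the tissue was not checked against marker genes.

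A tRNA folds into a cloverleaf in which the 5′ and 3′ ends pair in the acceptor stem. The anticodon sits in a loop at the far end, and the T loop lies between the anticodon arm and the 3′ end. The mature 3′ end carries the added bases CCA, to which the amino acid is attached. Ribonucleases such as angiogenin can cut in the anticodon loop under stress, which splits the tRNA into a 5′ and a 3′ piece. Many bases of a tRNA carry modifications. An adenosine of the T loop is methylated in many tRNAs, and reverse transcriptases often misread or stop at this base.

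3 of the tRNAs with many 3′ reads are shown first, because they set out where the fragments begin. Each was joined here from overlapping listed fragments, with the most-read base at each position and the anticodon in capitals. The deposited lengths of 71 and 72 nts do not include the CCA end.
tRNA1668-GlyGCC: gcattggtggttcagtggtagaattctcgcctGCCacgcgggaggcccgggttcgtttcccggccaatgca
tRNA20-AspGTC: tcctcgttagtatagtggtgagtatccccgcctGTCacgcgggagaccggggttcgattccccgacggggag
tRNA687-GlyCCC: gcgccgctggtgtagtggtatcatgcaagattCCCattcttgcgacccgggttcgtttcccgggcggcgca
The most abundant 3′ fragment of each of these and of 4 further tRNAs follows, because these are the leading sequences of the tRNAs described here. The base 15 nts before the tRNA's last position, in the T loop, is in capitals.
GluCTC 39 to 69: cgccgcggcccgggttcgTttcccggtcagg
GlyGCC (tRNA1668) 37 to 69: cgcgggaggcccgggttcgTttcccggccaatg
GlyGCC (tRNA7) 37 to 69: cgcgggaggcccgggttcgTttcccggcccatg
GlyCCC (tRNA687) 36 to 69: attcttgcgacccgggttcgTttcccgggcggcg
AspGTC (tRNA20) 38 to 69: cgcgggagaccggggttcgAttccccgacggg
LysTTT 42 to 73: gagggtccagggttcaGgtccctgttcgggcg
IleAAT 48 to 73: tcgcgggttcgTtccccgtacgggcc
In the first 5 of these fragments the sequence begins inside or just behind the anticodon loop and runs through the T loop into the acceptor stem. None of these 7 sequences ends with CCA. Both tRNA-Gly(GCC) sequences differ near the 3′ end, so that their fragments could be told apart by the list.

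The 3′ fragments were rare in the control side and more abundant in the ischemic side of every rat. Summed over the 230 fragments, the ischemic libraries of rats 45, 52, 61, 71 and 72 held 2408, 1710, 1398, 1597 and 1015 RPM. The control libraries of the same rats held 14.5, 19.6, 72.1, 21.9 and 22.6 RPM. The groups did not overlap, and the control library of rat 61 was the highest of its group. The mean of the ischemic libraries was 1626 ± 511 RPM and that of the control libraries 30.15 ± 23.67 RPM (SD, n = 5). The geometric means, 1563 and 25.2 RPM, differed 62.0-fold. The exact two-sided permutation test gave p = 0.00794 for n = 5 per group, the smallest value this design can give. With the animals paired, the exact p was 0.0625, also the smallest possible, and with the 6 libraries of matching labels the log2 difference was 5.59 with an exact p of 0.1, again the smallest possible. With the groups formed by the source label, the log2 difference fell to 0.75 and the exact p was 0.857.

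The list itself favours fragments that are present after ischemia. All 2262 listed fragments, and so all 230 3′ fragments, were read at least 1 time in each of the ischemic libraries. In every control library, reads were present for 599 of the 2262 and for 9 of the 230. In the control libraries 96 of the 230 had no read at all. None of the 230 had a lower mean RPM in the ischemic than in the control group, and this direction has to be read with that selection in view.

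The 3′ fragments were a small part of all tRNA-derived reads, and this part was larger in the ischemic group. Their share was 0.610%, 0.476%, 0.977%, 0.600% and 0.217% in the ischemic libraries of rats 45, 52, 61, 71 and 72, and 0.0600%, 0.0845%, 0.300%, 0.113% and 0.169% in the control libraries. The ranges overlapped, because the control library of rat 61 lay above the ischemic library of rat 72, although each rat was higher on the ischemic side. The difference of the means was 0.431 percentage points (exact permutation test, two-sided, p = 0.0159, n = 5 per group). With the animals paired the exact p was 0.0625, and with the 6 libraries of matching labels the difference was 0.450 percentage points with an exact p of 0.2. The list favours fragments present after ischemia, and how far this moved the share was not tested.

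Summed over their tRNAs, the listed 3′ fragments rose more than the listed 5′ fragments of the same tRNAs. In this sum tRNA-Gly(GCC) gave most of the 5′ reads, 4956256 ischemic and 607940 control. tRNA-Glu(CTC), with the most 3′ reads, gave 85417 and 13115 of the 5′ reads. The summed ratio thus sets the 3′ reads of several tRNAs largely against the 5′ reads of tRNA-Gly(GCC). For each 1000 reads that started at position 1 of these tRNAs, the ischemic libraries held 12.8, 10.6, 14.8, 12.8 and 6.49 reads of 3′ fragments in the order of the rats. The control libraries held 0.966, 1.18, 5.05, 1.62 and 3.42. Every ischemic library was above every control library. The mean log2 ratio was higher by 2.47, which is 5.53-fold (exact permutation test, two-sided, p = 0.00794, n = 5 per group, the smallest possible). The paired exact p was 0.0625, and the 6 libraries of matching labels gave a log2 difference of 2.58 with an exact p of 0.1. With the source label as the group, the log2 difference was 0.62 with an exact p of 0.532. Every listed fragment was read in every ischemic library. In every control library, 9 of the 230 3′ fragments were read, against 599 of all 2262 listed fragments. How far this selection of the list moved the ratio was not tested.

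The surplus of 5′ over 3′ reads differed widely between tRNAs. tRNA-Gly(GCC) gave on average 2.78 ± 0.815 reads of 3′ fragments per 1000 reads of 5′ fragments after ischemia, against 0.407 ± 0.281 on the control side (SD, n = 5). tRNA-Glu(CTC) gave 331.7 ± 67.4 against 81.7 ± 75.3. In both, the ischemic and control ranges were separate. In tRNA-Asp(GTC) the 3′ reads outnumbered the listed 5′ reads in every ischemic library, at 21770 ± 8630 per 1000 against 858.7 ± 870.5 in the control group. This was not particular to it, since tRNA687-GlyCCC had 4268 ischemic 3′ reads against 449 ischemic 5′ reads. For tRNA-Arg(CCT) and tRNA-Ile(AAT) no 5′ fragment was listed at all. tRNA-Lys(TTT) gave 165.3 ± 44.4 against 140.5 ± 53.8, and there the ranges overlapped. The reads that reached the list passed a size selection of about 20 to 35 nts, and the 230 fragments span 26 to 36 nts. A fragment from the most used start of tRNA-Glu(CTC) to the end of its CCA would measure 37 nts, and the same fragment of tRNA-Gly(GCC) 38 nts. Both are longer than the selected sizes. For tRNA-Lys(TTT) the same fragment would measure 35 nts. How far the size selection, or the selection of the list, moved with these ratios was not tested.

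Glutamate, glycine and aspartate tRNAs gave most of the 3′ reads. tRNA-Glu(CTC) reached 1056, 772.4, 666.4, 755.0 and 530.9 RPM in the ischemic libraries of rats 45, 52, 61, 71 and 72, and 6.04, 7.10, 43.9, 12.6 and 10.3 RPM in the control libraries. It made up 47.3% ± 3.22 of the 3′ reads of the ischemic libraries and 48.4% ± 10.5 of those of the control libraries (SD, n = 5). tRNA-Gly(GCC) reached 511.1, 373.9, 344.0, 382.6 and 246.2 RPM against 3.63, 4.54, 12.2, 2.52 and 2.70 RPM. In both the lowest ischemic library was far above the highest control library. tRNA-Asp(GTC) had 58.3 to 308 RPM in the ischemic group, with a median of 149.2, and 0.518 to 4.61 RPM in the control group. tRNA-Gly(CCC) followed at 117 ± 33.2 RPM, tRNA-Lys(TTT) at 70.0 ± 40.7, tRNA-Glu(TTC) at 37.0 ± 14.9 and tRNA-Arg(CCT) at 27.5 ± 12.4 (SD, n = 5, ischemic group). tRNA-Pro(AGG) and tRNA-Ile(AAT) came next at 23.4 ± 14.1 and 21.4 ± 12.9 RPM. From tRNA-Glu(TTC) to tRNA-Ile(AAT), neighbours in this order differed by less than their SDs.

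The summed 3′ fragments of 13 anticodons could be tested together with the other summed ends of all anticodons, 57 groups in all. With library totals as the library size, all 13 were higher in the ischemic group by edgeR's quasi-likelihood test. Of these 13, all had at least 10 reads in every ischemic library, 2 had them in every control library and 6 in no control library, so most passed the filter through the group where they are high and had to differ. None was lower, also at an unadjusted p under 0.05 and in DESeq2. Of the 57 groups, 89.5% were called higher and 5.26% lower, so that a rise was the common case in this list. The median log2 fold change was 6.57 over the 13 and 4.54 over the 57. tRNA-Trp(CCA) and tRNA-Pro(AGG) had the largest values, at 7.78 ± 0.83 and 7.68 ± 0.77 (SE). tRNA-Trp(CCA) had a read in 1 of the 5 control libraries, so its value is imprecise. For tRNA-Glu(CTC) the log2 fold change was 5.57 ± 0.57 (SE) and the adjusted p was 6.54e-20, and for tRNA-Gly(GCC) they were 6.20 ± 0.55 and 1.52e-24. For comparison, the 5′ fragments of the same anticodons had log2 fold changes of 3.52 and 3.44 in that fit. tRNA-Asp(GTC) differed most between its ends, with 6.57 for the 3′ and 1.51 for the 5′ fragments, and tRNA-Lys(TTT) least among the 5 most abundant, with 5.90 and 5.59.

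The same groups were also compared within the tRNA-derived reads, with TMM factors that set the typical tRNA fragment to no change. This scaling moved the median log2 fold change of the 57 groups from 4.54 to 0.77. Relative to the other groups, 12 of the 13 3′ groups were higher and 1 was lower, where 45.6% of the 57 were called higher and 28.1% lower. Only 2 of the 13 had at least 10 reads in every control library, and 6 had them in none. Most thus passed the filter through the ischemic group, so this count carries the same limit as that on library totals. The group that fell was tRNA-Ile(AAT), with a log2 fold change of -1.07 ± 0.43 (SE, adjusted p = 0.0244 from edgeR). The 12 that rose had values from 1.65 for tRNA-Sec(TCA) to 6.26 for tRNA-Thr(TGT). For tRNA-Thr(TGT) all 5 control libraries were at 0, so its value depends on the prior count. With the 6 libraries of matching labels, 10 of the 13 were higher and none was lower on this scale (edgeR), where 31.6% of the 57 were called higher and 22.8% lower, and 11 of the 13 had an unadjusted p under 0.05.

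Single fragments gave a like picture. Of the 230, 65 had at least 10 reads in at least 5 libraries and were tested. Only 8 of these 65 were read in every control library, so most passed through the ischemic group and had to differ. With library totals, 64 of the 65 were called higher by edgeR and none was lower (none at an unadjusted p under 0.05, and none in DESeq2), where 94.5% of all 876 tested fragments were called higher and 3.31% lower. Their median log2 fold change was 6.38, against 4.23 for all 876. The remaining 165 fragments held between 0.165 and 5.41 RPM on average in the ischemic group and were not tested. Within the tRNA-derived reads, with TMM factors, 49 of the 65 were higher and 1 was lower, where 18.9% of the 876 were called higher and 11.0% lower, 166 and 96 fragments. The medians on this scale were 2.69 for the 65 and 0.34 for the 876. With the 6 libraries of matching labels, the TMM fit called 3 of the 65 higher and 1 lower, where 1.03% of all 876 were called higher and 5.71% lower. The median log2 fold change of the 65 was then 2.37, with 64 of them above 0 and 40 at an unadjusted p under 0.05.

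The 12 most abundant fragments held 64.9% of all 3′ reads. In all 12 the ischemic and control libraries were separate, which was also so in 91.0% of the 876 tested fragments. The leading one, tRNA-Glu(CTC) from position 39 to 69 with T in the T loop, had 705.3, 498.5, 404.7, 482.3 and 355.7 RPM in the ischemic libraries of rats 45, 52, 61, 71 and 72. In the control libraries it had 3.97, 4.68, 30.8, 8.35 and 5.53 RPM. The control library of rat 61 was again the highest of its group, and the lowest ischemic library was still far above it. The log2 fold change was 5.53 ± 0.63 (SE, adjusted p = 8.39e-08 from edgeR), and 1.77 ± 0.47 within the tRNA-derived reads (adjusted p = 0.00672 from edgeR with TMM factors). The next fragments came from tRNA-Gly(GCC). The fragment of tRNA1668 from 37 to 69 ranged from 79.7 to 126.9 RPM after ischemia and from 0.750 to 4.80 RPM on the control side. The corresponding fragment of tRNA7 had 40.8 to 107.7 RPM against 0.194 to 2.40 RPM. This pair begins and ends at the same positions, while some other listed fragments of tRNA1668, such as 39 to 71, had no counterpart in tRNA7.

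Where the mean was 100 reads or more, the largest rises were those of tRNA-Asp(GTC) from 38 to 69, tRNA-Gly(CCC) from 36 to 68 and tRNA1668-GlyGCC from 37 to 70. The aspartate fragment had 52.5, 43.6, 29.4, 25.6 and 12.7 RPM in the ischemic libraries of rats 45, 52, 61, 71 and 72. The control values were 0, 0, 0.738, 0.583 and 0.0234 RPM, so that 2 control libraries held no read. Its log2 fold change was 7.30 ± 0.87 (SE), beside 7.20 ± 0.72 for the tRNA-Gly(CCC) fragment and 7.0 ± 0.76 for the tRNA-Gly(GCC) fragment. The 3 fragments had 8, 13 and 19 reads in all control libraries together and were tested through their ischemic reads, so these values describe them and no p is given. No 3′ fragment was called lower on library totals. Of the fragments without any control read, the one of tRNA-Asp(GTC) from 39 to 69 had the most ischemic reads, 354.

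Where the anticodon could be located, most 3′ reads began at its last base or a few bases behind it. This was possible in 8 tRNAs with 112 of the 230 fragments and 88.9% of the ischemic 3′ reads. In these tRNAs 99.9% of the ischemic and 99.8% of the control 3′ reads started between the last base of the anticodon and 4 nts behind it. Earlier starts were restricted by the selection. A fragment had to end no more than 3 nts before the last position and fall within the selected sizes. In tRNA-Glu(CTC) and tRNA20-AspGTC the earliest listed start, position 36 with an end at 69, already gives 34 nts. In tRNA687-GlyCCC the earliest, 35 to 68, also gives 34 nts. Whether fragments began before these positions was thus not tested. Over all 3′ reads, starts at positions 36 to 40 were the rule, and position 39 alone held 41.8% ± 1.83 of the ischemic and 41.5% ± 10.3 of the control 3′ reads (SD, n = 5). In tRNA-Glu(CTC) 79.7% of the ischemic and 75.9% of the control reads started at position 39, 3 nts behind the anticodon. In tRNA1668-GlyGCC 57.2% and 51.6% started at position 37, 2 nts behind it, and in tRNA7-GlyGCC 73.0% and 72.7%. In tRNA687-GlyCCC 75.0% and 76.9% started at position 36, 1 nt behind the anticodon. Both tRNA-Glu(TTC) species differed from tRNA-Glu(CTC) by 1 nt, since 57.4% and 58.1% of their ischemic reads started at position 40. The leading start was thus the same in both groups for these tRNAs, but some had few control reads. tRNA7-GlyGCC had 55 and tRNA687-GlyCCC had 52. The tRNA-Glu(TTC) species had 11 and 10, too few to compare the groups. In tRNA20-AspGTC the leading start differed, with position 38 in the ischemic group at 39.8% and position 40 in the control group at 62.6%, on 5137 and 91 reads. Rat 72 held 55 of the 91 control reads. Over the control libraries the share at position 40 was 45.5% ± 28.0 (SD, n = 5). The anticodon of tRNA-Ile(AAT) was not located. The pooled reads of this tRNA, 777 ischemic and 298 control, were led by position 44 at 34.9% and position 48 at 45.3%. Rat 72 gave 228 of the 298 control reads. Averaged over libraries, position 48 led on both sides. After ischemia it held 34.79% ± 10.68, against 31.52% ± 8.43 for position 44 (SD, n = 5), a gap smaller than the SDs. The control values were 51.75% ± 17.39 and 20.47% ± 18.3. A change of the leading start was thus not shown for this tRNA.

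The 5′ fragments of the same tRNAs ended a few bases before these starts. In tRNA1668-GlyGCC the leading 5′ end was at position 32, in 70.4% of the ischemic and 83.1% of the control 5′ reads, which leaves 4 nts up to the 3′ start. In tRNA-Glu(CTC) the leading 5′ end was at 33 in the ischemic group and at 34 in the control group, which leaves 5 and 4 nts. In tRNA687-GlyCCC it was at 32, which leaves 3 nts. In tRNA-Lys(TTT) 8 bases lay between the leading 5′ end and the leading 3′ start. In each of these the bases between the leading ends were in neither leading fragment. The rule for the 3′ ends and the selected sizes, up to about 35 nts, restrict this gap. A 3′ fragment that adjoined the leading 5′ end would reach or exceed that size. Whether such fragments were present was thus not tested.

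The share of 3′ reads that started at position 40 or before was higher in the ischemic group. It was 90.1%, 91.8%, 93.4%, 92.2% and 94.7% in the ischemic and 75.0%, 67.4%, 90.8%, 83.2% and 68.9% in the control libraries, in the order of the rats. The lowest ischemic value lay just below the highest control value, that of rat 61. The difference was 15.4 percentage points (exact permutation test, two-sided, p = 0.0159, n = 5 per group), and the paired exact p was 0.0625. With the 6 libraries of matching labels the difference was 15.7 percentage points with an exact p of 0.1, and with the source label as the group it was 3.47 with an exact p of 0.659. Most of it moved with tRNA-Ile(AAT), whose fragments start at 42 to 48. Without that tRNA the shares were 93.6% ± 1.54 and 90.4% ± 2.53 (SD, n = 5), a difference of 3.20 percentage points with an exact permutation p of 0.0476. The groups then overlapped, as the lowest ischemic library held 91.6% and the highest control library 94.4%. Leaving out this tRNA had not been planned.

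Of the 13 tested anticodons, tRNA-Ile(AAT) had the smallest difference between the groups. It made up 14.9% ± 9.25 of the control and 1.24% ± 0.490 of the ischemic 3′ reads (SD, n = 5). The control libraries of rats 45, 52, 61, 71 and 72 held 2.07, 4.83, 2.77, 1.75 and 5.34 RPM, and the ischemic libraries 41.2, 17.1, 24.1, 19.1 and 5.79 RPM. The groups were separate, but the ischemic library of rat 72 was only just above the highest control library. Its log2 fold change was 2.63 ± 0.54 (SE, adjusted p = 2.01e-06 from edgeR). The only tested 3′ fragment that was not called belonged to it, the fragment from 48 to 73 with A in the T loop. That fragment had 7.97, 2.07, 1.002, 2.15 and 0.454 RPM in the ischemic and 1.21, 3.41, 0.553, 0.583 and 1.31 RPM in the control libraries. The groups overlapped, and the log2 fold change was 0.87 ± 0.65 (SE, adjusted p = 0.196 from edgeR). Within the tRNA-derived reads it was the only 3′ fragment called lower, at -3.15 ± 0.66 (SE, adjusted p = 0.00111 from edgeR with TMM factors).

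Most listed 3′ fragments stopped before the tRNA's last position. Of the 230, 67 ended at the last position, 47 ended 1 nt before it, 61 ended 2 nts and 55 ended 3 nts before it. By reads the picture was more uneven, because 54.3% of the ischemic and 47.6% of the control 3′ reads ended 3 nts before the last position. tRNA-Glu(CTC) had 91.5% of its ischemic reads there, while tRNA-Gly(GCC) had 85.2% at 2 nts before the last position and tRNA-Lys(TTT) had 67.3% at the last position itself. The selected sizes, about 20 to 35 nts, restrict these ends. From the most used start to the end of CCA, a fragment would measure 37 nts in tRNA-Glu(CTC) and 38 nts in tRNA-Gly(GCC). In tRNA-Lys(TTT) it would measure 35 nts. How far the size selection moved with the ends was not tested. The share of reads ending at the last position was 9.54% ± 2.48 after ischemia and 9.16% ± 2.94 on the control side (SD, n = 5). This difference of 0.380 percentage points was smaller than the spread between libraries (exact permutation test, two-sided, p = 0.841).

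The limit of 3 nts cuts through a continuous range of ends in some tRNAs. For each 100 ischemic 3′ reads of all these tRNAs, 54.3 ended 3 nts before the last position and a further 8.56, not counted here, ended 4 nts before it. In the control group these values were 47.6 and 14.3. In tRNA-Glu(TTC) the reads just outside outnumbered those inside, with 3661 ischemic reads ending 4 nts before the last position and 802 ending 3 nts before it. In tRNA-Lys(TTT) no read ended 2 to 6 nts before the last position. By span, 31 nts was the most frequent size, with 38.2% ± 1.72 of the ischemic and 41.3% ± 11.1 of the control 3′ reads (SD, n = 5), followed by 33 nts with 24.0% ± 0.839 and 14.7% ± 4.34.

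The listed sequences of one tRNA varied mainly at 1 base of the T loop, the base 15 nts before the tRNA's last position. This was noticed after the sequences had been seen. The reads had been matched to the small RNA databases with up to 2 mismatches, so that variant sequences stayed on the list. Among 25 tRNAs with a fragment of full listed length, 17 positions showed more than 1 base, and 14 of the 17, in 14 tRNAs, were this base. The other three were 2 positions of tRNA-Glu(CTC) and 1 of tRNA-Val(TAC). 4 forms of the tRNA-Glu(CTC) fragment from 39 to 69 are shown, with the same base in capitals where it is present.
T form: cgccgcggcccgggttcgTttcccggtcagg
A form: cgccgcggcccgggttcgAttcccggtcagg
G form: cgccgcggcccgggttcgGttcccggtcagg
short form: cgccgcggcccgggtttcccggtcagg
Relative to the T form, the A form is T57A and the G form T57G, counting positions from 1 at the tRNA's first base. The short form lacks 4 nts of the listed span, at a place that can include this base. Such shorter listings were seen in 17 of the 230 fragments. For 14 of these, from 4 tRNAs, the missing stretch could be placed against the full-length sequence, and in all 14 it could include the same base.

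Which base was read depended on the tRNA. tRNA-Glu(CTC) had T in 86.9% and G in 1.05% of 26876 ischemic reads, and A in 3238 of them. tRNA1668-GlyGCC had T in 97.3% and tRNA687-GlyCCC in 96.2% of their ischemic reads. tRNA-Lys(TTT) had mostly G, at 72.6%, with T at 25.1%. tRNA20-AspGTC had A in 76.9% and T in 23.1%. Both tRNA-Glu(TTC) species had A in 100% of 725 and 599 ischemic reads, although their T loop shares its first bases with that of tRNA-Glu(CTC). Without a reference sequence of these tRNAs, whether a listed base was encoded or misread was not tested.

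The share of reads with a base other than A could be compared between groups in 3 tRNAs with at least 5 reads in every library. In tRNA-Ile(AAT) this share was 70.5%, 78.8%, 85.9%, 76.5% and 82.4% in the ischemic libraries of rats 45, 52, 61, 71 and 72, and 41.7%, 20.6%, 53.3%, 44.4% and 66.7% in the control libraries. The groups did not overlap, and the difference was 33.5 percentage points (exact permutation test, two-sided, p = 0.00794, adjusted over the 3 tRNAs 0.0238). The paired exact p was 0.0625. With the 6 libraries of matching labels the difference was 43.1 percentage points with an exact p of 0.1, and with the source label as the group it was 18.2 with an exact p of 0.198. The control values of rats 45 and 71 rest on 12 and 9 reads. In tRNA-Glu(CTC) the shares were 88.4% ± 3.20 and 83.2% ± 5.004 (SD, n = 5), an exact permutation p of 0.0794 and 0.119 when adjusted. In tRNA1668-GlyGCC they were 98.5% ± 0.609 and 97.4% ± 2.68, with an exact permutation p of 0.413. The ranges of the last 2 tRNAs overlapped.

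In a few fragments the listed positions and the sequence do not match. In 27 of the 230, which held 2.18% of the 3′ reads, the listed sequence is shorter or longer than the span of its positions. Of these, 7 run past the tRNA's end with CCA, from tRNA-Sec(TCA), tRNA-Lys(CTT) and tRNA-Tyr(GTA). The 4 listings of tRNA-Sec(TCA), the tRNA that inserts selenocysteine, carry a single sequence at starts 58 to 61, shown here with its final CCA.
SeCTCA: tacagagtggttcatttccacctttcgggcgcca
Together they had 11.4, 9.30, 7.25, 7.61 and 4.65 RPM in the ischemic libraries of rats 45, 52, 61, 71 and 72, and 0.345, 0, 0.369, 0.388 and 0.141 RPM in the control libraries. The groups were separate, with a log2 fold change of 5.17 ± 0.65 (SE). The control libraries held 12 of these reads in all, so they were tested through the ischemic reads and no p is given. Which of the 4 starts a read had cannot be told from a shared sequence. In all, 8 of the 230 fragments share their sequence with another.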

How the data were processed

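Small RNA of both brain sides of 5 rats was sequenced by the authors after selecting inserts of about 20 to 35 nts. Per the study's methods, reads under 18 nts were removed and the rest compared with miRBase, then with other small RNA databases at up to 2 mismatches, and tRNA fragments were placed with the Genomic tRNA Database. The submitters' processing notes name the rat build rn4, and no genome coordinates were used. The authors deposited raw read counts for each fragment in each library. A second deposited value, headed TPM, is RPM, the same reads per 1000000 library reads, with no length scaling. Library totals were recovered as reads divided by RPM.

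Members were found by position, and members and lists were chosen with earlier results of these data known. Fragments, and reads summed by anticodon and end, that reached 10 reads in 5 or more libraries were tested with edgeR 4.0.16 (R 4.3.3), quasi-likelihood, robust, Benjamini-Hochberg at 0.05, with library totals as library sizes, and again with TMM factors on the tRNA-derived reads. DESeq2 1.42.0 was an alternative. Single values were compared by exact two-sided permutation tests on differences between group means, over 252 splits. P-values measure the spread between these animals. Named fragments were the 12 most abundant, up to 3 with the largest rise or fall among called fragments averaging 100 reads or more with one direction in 5 of 5 rats, and called lower fragments. Named anticodons were the 10 with most 3′ reads. Other fragments, and tRNA-Trp(CCA) and tRNA-Thr(TGT), were named after their values were seen.

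On counts simulated from the 876 fragments with 200 changed by 3 on the log2 scale, both tools recovered 100% of the changed ones, with 3.38% false calls in edgeR. The simulation gave all fragments the same fixed dispersion and took their means over both groups. It did not cover the fit with TMM factors, so these rates need not hold for the real counts. Both libraries of a rat come from one animal, so the rat numbers pair them. The correlations of their deviations from the group means over the 65 tested fragments were 0.113, -0.0257, 0.206, 0.00406 and -0.115 for rats 45, 52, 61, 71 and 72. Unpaired tests, which the study's statistics use, were the main ones. No 2 libraries had equal reads. Of 6 tRNAs that could be joined completely, 3 are printed and the others are not reported here. Python 3.11.15, numpy 2.4.6, pandas 2.3.3 and scipy 1.17.1 were used.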

Additional observations from a re-analysis of the deposited data

Results flagged for a closer look

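In 10 of 62 groups of 5 libraries examined, 1 library lay far from the other four by Dixon's ratio of its gap to the group's range, where chance gives about 1 in 20. Several of these groups hold the same reads. The control library of rat 61 accounted for 7 of the 10. Its summed 3′ level was 72.1 RPM, against 14.5 to 22.6 RPM in the other control libraries (ratio 0.859). It also stood apart for tRNA-Glu(CTC) at 43.9 RPM (0.826), tRNA-Gly(GCC) at 12.2 RPM (0.791) and tRNA-Arg(CCT) at 0.922 RPM (0.789). Among single fragments it stood apart for tRNA-Glu(CTC) from 39 to 69 at 30.8 RPM (0.837), tRNA1668-GlyGCC from 37 to 69 at 4.80 RPM (0.799) and tRNA687-GlyCCC from 36 to 68 at 0.738 RPM (0.746). Both labels of this library name the control side.

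The ischemic library of rat 72 was low for the A form of the tRNA-Glu(CTC) fragment from 39 to 69, at 25.0 RPM against 55.7 to 67.5 RPM in the others (0.722). For the A form of the tRNA-Ile(AAT) fragment from 48 to 73, the control library of rat 52 was high at 3.41 RPM (0.734) and the ischemic library of rat 45 was high at 7.97 RPM (0.775).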

How the results depend on the processing

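The exact tests of level, share of tRNA reads, 3′ to 5′ ratio and loop start share reached p = 0.0625 with the rat as a block and 0.1, 0.2, 0.1 and 0.1 with the 6 libraries of matching labels, with values of 5.96 and 5.59 (log2), 0.431 and 0.450 (percentage points), 2.47 and 2.58 (log2) and 15.4 and 15.7 (percentage points). With groups by source label they were 0.75, 0.109, 0.62 and 3.47 with p of 0.857, 0.579, 0.532 and 0.659, and the counts of higher fragments and of higher anticodons were 0 in edgeR (0 at an unadjusted p under 0.05) and 0 with TMM factors (1 fragment at an unadjusted p under 0.05), with 0 lower. With the block, 64 fragments and 13 anticodons were higher on library totals and 43 and 12 with TMM factors. Leaving out each library gave 5.76 to 6.33 for the level, 0.331 to 0.521 for the share, 2.21 to 2.80 for the ratio, 13.0 to 18.8 for the loop start share and -0.46 to 1.41 for the share of reads ending at the last position, which turned without the ischemic library of rat 45 (-0.20) or 71 (-0.18) or the control library of rat 52 (-0.46) or 61 (-0.12). Counts were 64 to 65 higher fragments on library totals and 37 to 54 with TMM factors. The filters gave 226 of 230 higher at 1 read (2117 of 2262 for all fragments), 135 of 136 at 10 reads in 2 libraries (1408 of 1494) and 21 of 21 anticodons at 1 read (66 of 72 groups). TMM factors gave 1 lower fragment and 1 lower anticodon, and with the 6 libraries 3 higher fragments and 0 lower anticodons.

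Among the named fragments, anticodons and T loop shares, 418 of 453 alternative values kept their call and direction. Under the source label 13 turned: tRNA687-GlyCCC 36 to 69 (-0.15), tRNA-Glu(CTC) 38 to 69 (-0.0213), tRNA1668-GlyGCC 37 to 70 (-0.70), tRNA20-AspGTC 38 to 69 (-0.51), tRNA-Ile(AAT) 48 to 73 (-1.46), the anticodons AspGTC (-0.68), GlyCCC (-0.0219), LysTTT (-0.59), GluTTC (-0.0386), ArgCCT (-0.38), IleAAT (-0.28) and SeCTCA (-0.10), and the share of reads without A in tRNA-Glu(CTC) (-3.29). The tRNA-Ile(AAT) fragment also turned without the ischemic library of rat 45 (-0.0806), with the 6 libraries (-0.63) and with TMM factors (-3.15), and was called higher without the control library of rat 52 (1.43) and with reads outside the list as library size (1.48). The IleAAT anticodon turned with TMM factors (-1.07). A further 12 lost their call under the source label: 8 of the 12 most abundant fragments (0.0152 to 0.40, adjusted p = 0.997 from edgeR), the anticodons GluCTC, GlyGCC and ProAGG (0.0671 to 0.18, adjusted p = 0.994) and the share of reads without A in tRNA-Ile(AAT), which also lost it with the 6 libraries and with the block. The cause was not tested. The share of reads without A in tRNA-Glu(CTC) passed the threshold without the control library of rat 52 or 61 (6.42 and 6.69 percentage points, exact p = 0.0476). The control libraries held 84 to 965 reads of 3′ fragments each, which limits every control value.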
